A study of Mus musculus with 30 samples.

Results

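Whether KCL-HO-1i and 5-fluorouracil (5-FU) acted on the transcriptome of mammary tumors as the sum of their separate effects was examined in 20 of the 30 libraries of the series. These were 4 groups of 5 tumors, labelled Control (vehicle), 5-FU, KCL-HO-1i and KCL-HO-1i/5-FU (the combination). The remaining 10 libraries came from the Gemcitabine and KCL-HO-1i/Gemcitabine groups (gemcitabine, labelled as 64 mg/kg every 7 days, while the text of the study gives a lower dose), which entered the fit to estimate the spread between tumors and were used in the last contrast below. All mice carried the MMTV-PyMT transgene on the FVB/N background (FVB/N-Tg(MMTV-PyVT)634Mul/J), in which a mammary tumor virus promoter drives the polyoma middle T antigen in the mammary epithelium, and their genotype was otherwise labelled WT. The labels gave 72 hours of treatment, while the text of the study describes a shorter one, and the ages of the mice were not given in the sources used here. KCL-HO-1i was injected at 25 µmol/kg daily and 5-FU at 40 mg/kg every 4 days, both into the peritoneum. Per the study, KCL-HO-1i is a tin phosphate salt form of tin mesoporphyrin.

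For each gene the interaction was calculated on the log2 scale as the difference between the combination and 5-FU, minus the difference between KCL-HO-1i and Control. A value of 0 means that the combination sat where the separate effects added on the log2 scale would place it, which is called the additive expectation below. A positive value places the combination above that level and a negative value below it. Whole tumors were sequenced, so fewer cells of a type and less RNA per cell cannot be told apart. Per the study the tumors came from cohorts of separate mice. The mouse codes of the labels held 10 numbers over the 20 libraries, and what these numbers stand for is not stated. Within groups a number was shared by 5-FU replicates 1, 2 and 3, by Control replicates 2 and 3, and by KCL-HO-1i replicates 2 and 3. Combination replicates 1 and 5 also shared a number, as did replicates 2 and 4. The main fit treated the 5 tumors of each group as independent. Library totals ran from 10835346 to 13482226 counts, and mitochondrial genes held 1.44% to 9.69% of them. The luminal keratin Krt8 was at 1341 ± 185 counts per 1e6 counts (CPM) in Control and 1175 ± 369 in the combination (SD, n = 5), so the tumors carried the epithelial marker their label implies.

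As background, heme oxygenase-1, encoded by Hmox1, breaks down heme to biliverdin, carbon monoxide and iron, and tin porphyrins occupy its active site. 5-FU is converted to nucleotides that block thymidylate synthase and enter RNA and DNA. The resulting damage is known to engage the transcription factor p53, which induces genes of cell cycle arrest, apoptosis and repair, among them Cdkn1a and its own inhibitor Mdm2. Tumors of the mammary gland lie within a fat pad, beside muscle and under skin.

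No gene passed an adjusted p under 0.05 for the interaction in edgeR (0 of 13663 tested, 0%), with a smallest adjusted p of 0.420. At an unadjusted p under 0.05 there were 1166 genes (8.53%), of which 550 were above the additive expectation (4.03% of those tested) and 616 below it (4.51%). limma-voom also gave 0 genes at the adjusted threshold, with 1006 above (7.36%) and 932 below (6.82%) at the unadjusted one. DESeq2 gave 22 (0.161%), described below, with 552 above (4.04%) and 741 below (5.42%) at the unadjusted threshold. The median interaction of all tested genes was 0.00, and the median standard error of a single gene was 0.296 on the log2 scale. The adjusted p of single genes given below are two-sided, from the quasi-likelihood fit of edgeR over all tested genes, and none passed. Genes said to be at the threshold had an unadjusted p under 0.05, and their counts in each list are read against 4.03% above and 4.51% below. These shares hold for the main fit only. The totals over all tested genes differ in other fits, and the last section gives some of them.

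**Figure D1:**
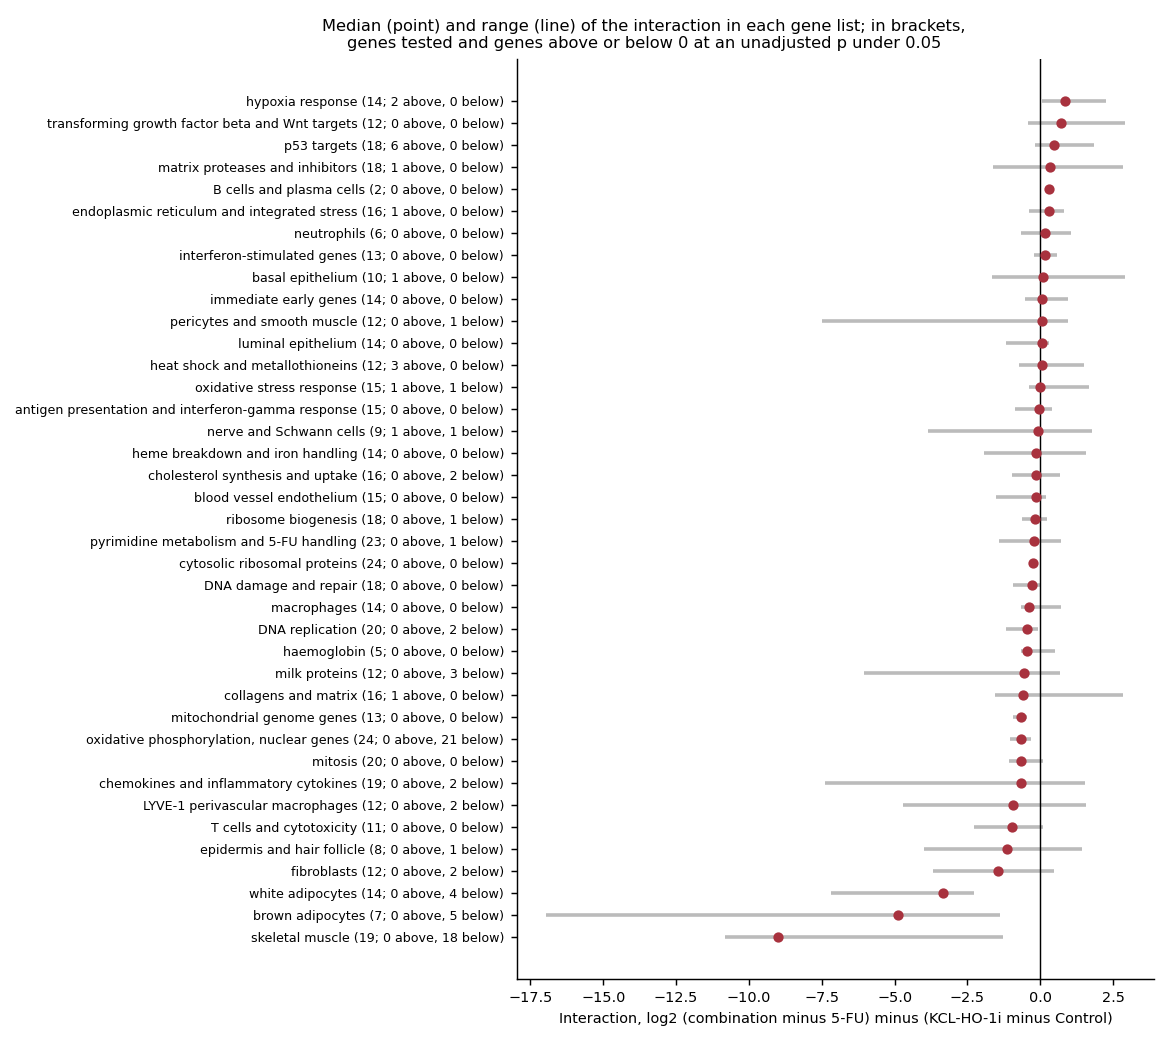
Interaction in each of the 39 gene lists on the log2 scale, with the median of the tested members as a point and their lowest and highest values as a line. The numbers in brackets give the members tested and those above or below the additive expectation at an unadjusted p under 0.05. Lists of hypoxia, p53 and growth factor targets lie at the right with medians between 0.48 and 0.85, and skeletal muscle and fat lists at the left with medians from -3.35 to -9.00.

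Targets of p53 lay above the additive expectation in the combination. Of 18 tested genes, 17 had a positive interaction, against 50.6% of all tested genes, and 6 had an unadjusted p under 0.05, all of them positive. The median was 0.48. The score of the list, the mean log2 CPM of its genes, was 4.93 ± 0.14 in Control, 4.98 ± 0.34 in 5-FU, 4.71 ± 0.11 in KCL-HO-1i and 5.38 ± 0.15 in the combination (SD, n = 5). By tumor the combination scores were 5.37, 5.37, 5.63, 5.32 and 5.22, and the 5-FU scores 4.70, 4.79, 5.15, 4.77 and 5.50. Every combination tumor was above every Control and KCL-HO-1i tumor, and 5-FU replicate 5 was the only tumor without both drugs that reached their range. The count of genes above the expectation was between 5 and 8 when each of the 20 libraries was left out in turn. It was 11 in limma-voom, where 7.36% of all tested genes were above. With the number in the mouse code of the labels as a covariate the count was 1, with a median of 0.58. There 157 of all 13587 genes with a position were above. No Control tumor shares this number with a 5-FU, KCL-HO-1i or combination tumor. In that fit Control replicate 1, which shares it with a KCL-HO-1i/Gemcitabine tumor, alone links Control to the other groups. Every interaction from that fit rests on this link.

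Cdkn1a, which encodes the cyclin-dependent kinase inhibitor p21, lay at 69.9, 85.2, 120, 94.7 and 148 CPM in Control and at 55.6, 68.0, 126, 48.1 and 343 in 5-FU. It was at 57.2, 41.7, 38.4, 65.5 and 61.8 CPM in KCL-HO-1i and at 256, 236, 210, 219 and 178 in the combination. The combination tumors did not overlap the Control or KCL-HO-1i tumors, and a single 5-FU tumor, replicate 5, was higher than all of them. The additive expectation for the combination was 65.5 CPM against a fitted 220, an interaction of 1.75 (SE 0.62, 95% interval 0.47 to 3.02, adjusted p = 0.482). Cdkn1a lies on chromosome 17 (29090979 to 29100722 in GRCm38). The 250 bases before 1 of its 2 RefSeq starts (GRCm38.p6, plus strand, chr17:29090729-29090978) are shown because they hold a pair of p53 half-site cores, CATG repeated after 6 other bases, in capitals with the bases between them, from 48 to 35 bases before the start.
Cdkn1a: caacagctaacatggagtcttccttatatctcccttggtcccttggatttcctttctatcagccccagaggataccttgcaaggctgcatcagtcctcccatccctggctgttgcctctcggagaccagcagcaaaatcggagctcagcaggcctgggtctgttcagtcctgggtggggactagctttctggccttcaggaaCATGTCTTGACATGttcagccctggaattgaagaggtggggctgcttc
That pattern, which reads the same on both strands, was found in 161 of 32851 such stretches before RefSeq starts (0.49%). Among the 14 listed p53 targets with a stretch in the table it was found in Cdkn1a alone. The patterns searched here were chosen after the sequences had been read.

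The other p53 targets at the threshold were spread over other arms of the pathway. Mdm2, the ubiquitin ligase that removes p53, was at 61.6 to 77.6 CPM in the combination, against 52.3 to 68.4 in Control, 48.0 to 65.7 in 5-FU and 47.1 to 65.3 in KCL-HO-1i, so the ranges overlapped slightly (interaction 0.47, SE 0.15, adjusted p = 0.450). Sesn2, a stress-induced inhibitor of mTORC1 signaling, was at 45.4, 46.6, 37.3, 38.5 and 40.0 CPM in the combination and at 22.7 to 34.4 in KCL-HO-1i (interaction 0.81, SE 0.23, adjusted p = 0.420). Its means were 33.4 ± 2.85 CPM in Control and 31.1 ± 6.71 in 5-FU (SD, n = 5). As for Cdkn1a, the means of Mdm2 and Sesn2 were lower under KCL-HO-1i alone than in Control and highest in the combination. A positive interaction, by which both were picked, favors this order of means. Eda2r, a receptor of the tumor necrosis factor family, had means of 4.74, 3.92, 2.45 and 7.29 CPM in Control, 5-FU, KCL-HO-1i and the combination (interaction 1.85, SE 0.62, adjusted p = 0.450). Tnfrsf10b, the mouse TRAIL death receptor, had an interaction of 0.76 (SE 0.25, adjusted p = 0.450), and the RNA-binding protein gene Zmat3 one of 0.99 (SE 0.41, adjusted p = 0.513). The remaining 12 members did not reach the unadjusted threshold, including the apoptosis genes Bax at 0.48 and Bbc3 at 0.46. Fas was the only member with a negative value, at -0.17.

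**Figure D2:**
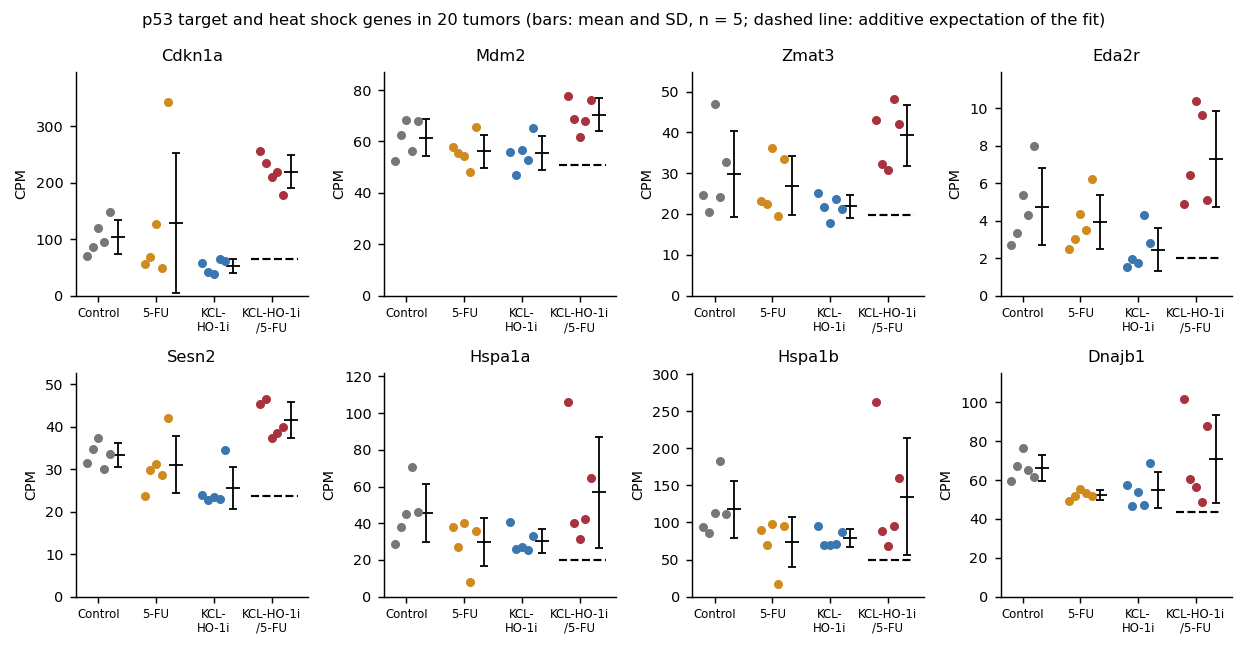
CPM of 5 p53 targets and 3 heat shock genes in each of the 20 tumors, replicates 1 to 5 from left to right, with the mean and SD of each group (n = 5) as a bar and the additive expectation as a dashed line. All 5 combination tumors exceed the dashed line in Cdkn1a, from 178 to 256 CPM against 65.5, while in Hspa1a combination replicate 1 stands apart at 106 CPM.

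The list of heat shock and metallothionein genes was another group in which several members lay above the expectation with an unadjusted p under 0.05. Of its 12 tested genes 3 did so, all of them heat shock genes, and the count was 3 or 4 with each library left out, while 6 members were negative and the median of the list was 0.05, or -0.08 to 0.16 with a library left out. The count below the expectation was 0, and 0 to 2 with a library left out. Hspa1a and Hspa1b encode near-identical copies of the chaperone HSP70, so reads can be split between them and their separate values are uncertain. Hspa1a was at 106, 40.0, 31.2, 42.1 and 64.8 CPM in the combination and at 38.1, 27.3, 40.2, 7.98 and 35.9 in 5-FU. Control held 28.8 to 70.9 CPM and KCL-HO-1i 25.5 to 40.5, so the groups overlapped. The interaction was 1.51 for Hspa1a (SE 0.48, adjusted p = 0.450), 1.44 for Hspa1b (SE 0.50, adjusted p = 0.459) and 0.71 for Dnajb1, a co-chaperone of HSP70 (SE 0.23, adjusted p = 0.450). In all of these the means of 5-FU and of KCL-HO-1i were below Control and that of the combination above it. A positive interaction, by which they were picked, favors this arrangement, so it is no separate result. Dnajb1 had means of 66.1 ± 6.60, 52.4 ± 2.42 and 54.8 ± 9.09 CPM in Control, 5-FU and KCL-HO-1i (SD, n = 5), and its combination tumors were at 102, 60.7, 56.2, 48.6 and 87.7. The constitutive family member Hspa8 had an interaction of 0.10, and the metallothioneins Mt1 and Mt2, which bind metal ions, had -0.41 (SE 0.58) and -0.72 (SE 0.91).

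The 250 bases before the RefSeq starts of the paralog pair (GRCm38.p6, minus strand, chr17:34972157-34972406 for Hspa1a and chr17:34959239-34959488 for Hspa1b) are shown because they belong to the genes with the largest interaction in this list. A heat shock element pair, GAANNTTC, is in capitals and lies between 104 and 97 bases before either start.
Hspa1a: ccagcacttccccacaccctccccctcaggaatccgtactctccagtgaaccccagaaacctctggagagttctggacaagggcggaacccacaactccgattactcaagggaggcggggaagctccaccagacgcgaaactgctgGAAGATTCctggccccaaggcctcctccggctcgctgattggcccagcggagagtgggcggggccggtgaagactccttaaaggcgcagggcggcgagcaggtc
Hspa1b: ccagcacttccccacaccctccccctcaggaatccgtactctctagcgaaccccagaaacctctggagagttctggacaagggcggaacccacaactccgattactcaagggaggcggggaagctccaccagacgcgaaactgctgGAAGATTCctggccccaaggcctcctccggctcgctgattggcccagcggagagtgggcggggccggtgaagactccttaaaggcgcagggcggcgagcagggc
The sequences share 247 of 250 bases. The pattern reads the same on both strands and was found in 2199 of 32851 stretches of this length (6.69%) and in 5 of the 10 listed heat shock genes with a stretch in the table, which were Hspa1a, Hspa1b, Hspb1, Hspd1 and Hspe1. Genes with the pattern did not share a direction. Hspb1 had an interaction of 0.39 (SE 0.26), while Hspd1 and Hspe1 were negative, at -0.51 (SE 0.33) and -0.67 (SE 0.33). The other phase of the element, TTCNNGAA, was in 7.17% of the stretches and in Hsph1, Hspd1 and Hspe1. A listed gene was counted if any of its starts held the pattern, so these counts and the shares of stretches are unlike units.

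Hypoxia genes had a median of 0.85, and all 14 tested members were positive. With 1 library left out the median ran from 0.49 without Control replicate 3 to 1.23 without KCL-HO-1i replicate 4. Only 2 reached the unadjusted threshold, P4ha1, a collagen prolyl hydroxylase subunit (1.31, SE 0.60, adjusted p = 0.557), and Kdm3a, a histone demethylase (0.78, SE 0.35, adjusted p = 0.525). By tumor P4ha1 was at 27.9, 18.0, 80.3, 27.7 and 61.8 CPM in the combination, 28.9, 30.9, 22.8, 21.3 and 19.9 in 5-FU, 18.3, 21.7, 25.6, 46.4 and 18.6 in KCL-HO-1i, and 23.6, 30.2, 58.9, 40.2 and 32.7 in Control, so the 4 groups overlapped. The list score was 6.16 ± 0.74 in Control and between 5.44 and 5.61 in the other groups, and Control replicate 3 held the highest score of the 20 tumors, 7.43. With 1 library left out the count of 2 ran from 0 (without Control replicate 3, 5-FU replicate 3, KCL-HO-1i replicate 2 or combination replicate 5) to 6 (without KCL-HO-1i replicate 4). It was 1 without Control replicate 4, 5-FU replicates 4 or 5, KCL-HO-1i replicates 1, 3 or 5, or combination replicate 4. The core of the hypoxia response element, ACGTG on either strand, was found in the 250 bases before a start of 9 of 12 listed genes, P4ha1 among them, and of 16.6% of all such stretches. A gene was counted if any of its starts held the core, so genes and stretches are unlike units. Targets of transforming growth factor beta and Wnt signaling had 11 of 12 members positive, a median of 0.72 and 0 members at the unadjusted threshold. That median was 0.38 without combination replicate 3, 0.40 without Control replicate 3 and 1.21 without KCL-HO-1i replicate 4, where 2 members were above the expectation. Among them Ccn2, connective tissue growth factor, was at 1.76 (SE 0.98).

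In the matrix genes at the unadjusted threshold a single combination tumor stood far above the others. Mmp13, collagenase 3, was at 26.5, 12.3, 191, 22.1 and 16.4 CPM in the combination and at 0.815 to 12.5 in the other tumors (2.83, SE 1.05, adjusted p = 0.486), so replicate 3 was the highest and the groups barely overlapped. Eln, elastin, was at 2459 CPM in combination replicate 3 and at 35.2 to 137 in its other replicates, which lay within the range of the tumors without both drugs (2.82, SE 1.35, adjusted p = 0.577). These were the only members at the threshold among 18 matrix protease genes, with a median of 0.34, and 16 collagen and matrix genes, with a median of -0.61. In the list of basal epithelium 5 of 10 members were negative and the median was 0.08, or -0.69 without combination replicate 3, with Krt5 at -1.13 (SE 0.96), Cnn1 at -1.46 (SE 1.71) and Myh11 at -1.65 (SE 1.23). Its only member at the threshold, the keratin Krt17, was likewise highest in a single combination tumor, replicate 1, at 315 CPM against 13.7 to 29.5 in the other 4 (2.92, SE 1.32, adjusted p = 0.551), as was S100b of glial cells, at 129 CPM against 16.9 to 38.6 (1.77, SE 0.85, adjusted p = 0.579).

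The nuclear genes of oxidative phosphorylation lay below the additive expectation as a group. All 24 tested members were negative, against 49.4% of all tested genes, 21 had an unadjusted p under 0.05 and the median was -0.65. They included subunits of each respiratory complex: Ndufb8 of complex I (-0.87, SE 0.28, adjusted p = 0.450), Sdhb of complex II (-1.04, SE 0.37, adjusted p = 0.482), Uqcrb of complex III (-0.57), Cox5a of complex IV (-0.99) and Atp5b of the ATP synthase (-0.65, SE 0.30, adjusted p = 0.562). The score of the list was 7.27, 7.02, 7.07, 6.91 and 7.16 in the combination, 7.38, 7.24, 7.25, 7.00 and 7.24 in Control, 7.25, 7.31, 7.26, 7.58 and 7.12 in 5-FU, and 7.23, 7.25, 7.39, 8.52 and 7.47 in KCL-HO-1i. The combination lay within or just under the range of Control, and KCL-HO-1i replicate 4 stood far above every other tumor. Without that library the count was 5 and the median -0.34, without 5-FU replicate 4 the count was 8, and without Control replicate 4 it was 10. The sign of the median was the same in all of these. Among all tested genes, too, the count below the expectation was lowest without KCL-HO-1i replicate 4, of the fits with 1 library left out. In limma-voom with quality weights 5 members were below the expectation, against 6.82% of all tested genes, with a median of -0.31. With the mouse code number as a covariate the median turned to 0.23 with 0 members at the threshold. That fit leaves few degrees of freedom and links Control to the other groups through Control replicate 1 alone.

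Other mitochondrial families had the same sign, although they were chosen after their values were seen. All 38 tested subunits of NADH dehydrogenase were negative, 19 of them with an unadjusted p under 0.05 and a median of -0.53 (7 without KCL-HO-1i replicate 4, 9 without 5-FU replicate 4 and 12 without Control replicate 4). Of 78 mitochondrial ribosomal proteins 74 were negative and 26 had an unadjusted p under 0.05 below the expectation, with a median of -0.32. The 2 above it, Mrps7 and Mrpl58, lie on chromosome 11 at 115604140 to 115608036 and 115403724 to 115412674, in the region described below. The count below the expectation with 1 library left out ran from 9 (without 5-FU replicate 4) to 34, with 10 to 17 also without Control replicate 4, 5-FU replicate 2, KCL-HO-1i replicates 4 or 5, or combination replicates 2, 3 or 4. Their score was 5.36, 5.10, 5.12, 5.03 and 5.31 in the combination and did not hold an outlying KCL-HO-1i tumor, with 5.33, 5.31, 5.37, 5.58 and 5.58 there. Mitochondrial aminoacyl-tRNA synthetases had 3 of 17 members below the expectation at the threshold, Rars2 (-0.50), Sars2 (-0.65) and Yars2 (-0.68), and a median of -0.26. Of 8 assembly factors of NADH dehydrogenase 3 were below it, among them Ndufaf7, a methyltransferase of complex I assembly. Ndufaf7 was at 23.5, 24.0, 27.7, 23.5 and 24.9 CPM in the combination and at 28.5 to 35.2 in KCL-HO-1i, with which it did not overlap (-0.54, SE 0.14, adjusted p = 0.420). Mtif2, the initiation factor of mitochondrial translation, was at 31.1, 36.6, 38.3, 37.1 and 33.9 CPM against 40.7 to 56.6 in KCL-HO-1i (-0.52, SE 0.14, adjusted p = 0.420). Control means were 27.7 ± 4.24 CPM for Ndufaf7 and 41.3 ± 2.84 for Mtif2 (SD, n = 5). Apart from fat and muscle genes Ndufaf7 and Mtif2 had the smallest p below the expectation among genes with a mean of at least 5 CPM. The 13 genes of the mitochondrial genome were all negative, with a median of -0.65 and 0 at the unadjusted threshold. That median was 0.95 with the mouse code number as a covariate and 0.08 without KCL-HO-1i replicate 4. Cytosolic ribosomal proteins were negative in all 24 listed members with a median of -0.26 and 0 at the threshold. Over all 78 cytosolic ribosomal protein genes tested, 76 were negative with a median of -0.28, which was -0.12 without 5-FU replicate 4 and -0.15 without KCL-HO-1i replicate 5. The only one of these at the threshold, Rpl38, lay above the expectation (0.75, SE 0.28) and is on chromosome 11 at 114667818 to 114672333. Without KCL-HO-1i replicate 4, 6 were below it.

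The 5 combination tumors all lay outside the other 15 in a small number of genes. In 15 genes all combination tumors were lower than every other tumor (0.11% of those tested) and in 15 all were higher (0.11%), and these were named after their values were seen. The lower ones included Bckdk and Bcat2, a kinase and an aminotransferase of branched-chain amino acid breakdown, Hibch of valine breakdown, Asns, asparagine synthetase, Ehhadh of peroxisomal fat oxidation, Tfb1m, Mtg1 and Trmu, which modify or assemble mitochondrial RNA and ribosomes, Pdss2 of coenzyme Q synthesis, and Rhot2 of mitochondrial transport. The others were Exosc2, Gemin6, Prpf31 and Wrap53, which take part in RNA processing or the assembly of RNA-protein complexes, and Cep44 of the centrosome. Bckdk was at 102, 111, 85.6, 114 and 90.6 CPM in the combination and between 137 and 221 in the other tumors (interaction -0.72, SE 0.26, adjusted p = 0.486). Bcat2 was at 56.1, 53.6, 54.1, 49.1 and 55.0 CPM in the combination and at 59.5 or more elsewhere (-0.52, SE 0.29, adjusted p = 0.626). Tfb1m, a dimethyltransferase of the mitochondrial small subunit RNA, was at 3.32, 4.08, 4.32, 4.86 and 3.91 CPM against 5.07 to 8.06 (-0.85, SE 0.28, adjusted p = 0.450). For Asns the additive expectation, 45.1 CPM, was already below every tumor without both drugs, the lowest of which was at 46.5. The combination tumors were at 36.3, 35.0, 17.5, 44.7 and 37.0 CPM and the interaction was -0.40 (SE 0.36, adjusted p = 0.755).

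Among the 15 higher genes were Nab2, a corepressor of EGR transcription factors, Lrig1, a negative regulator of ErbB receptors, Ephb3, an ephrin receptor, Arid4a, a chromatin protein, Prkacb, a catalytic subunit of protein kinase A, Trpv4, a cation channel, and Strada, a partner of the kinase LKB1. Nab2 was at 104, 79.2, 102, 68.4 and 121 CPM in the combination, 57.9, 59.6, 55.7, 58.3 and 62.3 in Control and at most 62.5 in 5-FU (interaction 0.93, SE 0.23, 95% interval 0.46 to 1.39, adjusted p = 0.420). Lrig1 was at 107, 95.2, 161, 95.2 and 125 CPM against 49.1 to 90.8 (0.79, SE 0.25, adjusted p = 0.450). Arid4a varied least, at 49.2, 48.5, 48.4, 48.1 and 49.9 CPM against 32.8 to 45.8 (0.44, SE 0.15, adjusted p = 0.452). Nab2 was also among the 10 genes above the expectation with the smallest p and a mean of at least 5 CPM. The rest of those 10 were Smurf2, Igip, Pcdhga6, Grb2, Dcaf7, Camsap1, Lrp10, Nfrkb and Atn1. Lrp10, a receptor of the low density lipoprotein receptor family, was at 236, 210, 245, 198 and 208 CPM in the combination and at 158 to 183 in KCL-HO-1i (0.51, SE 0.14, adjusted p = 0.420). Atn1, a transcriptional corepressor, was at 0.56 (SE 0.15), Nfrkb, a subunit of the INO80 chromatin remodeler, at 0.83 (SE 0.22), Camsap1 at 0.73 (SE 0.19) and Igip at 0.97 (SE 0.25). The mean of Nfrkb was 27.0 CPM in the combination, below the 30.5 of Control, and that of Camsap1 was 24.1 against 22.4. In all of these 10 genes with the smallest p the mean of 5-FU and that of KCL-HO-1i were both below Control. Picking genes by a positive interaction favors this arrangement, so it is no separate result. Pcdhga6 was at 28.4 CPM in combination replicate 3 and 2.51 to 7.98 in the other 4. Protocadherin gamma genes share their last exons, so reads can be split among them and its value is uncertain. Of 20 such genes 2 were above and 1 below the expectation at the threshold.

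**Figure D3:**
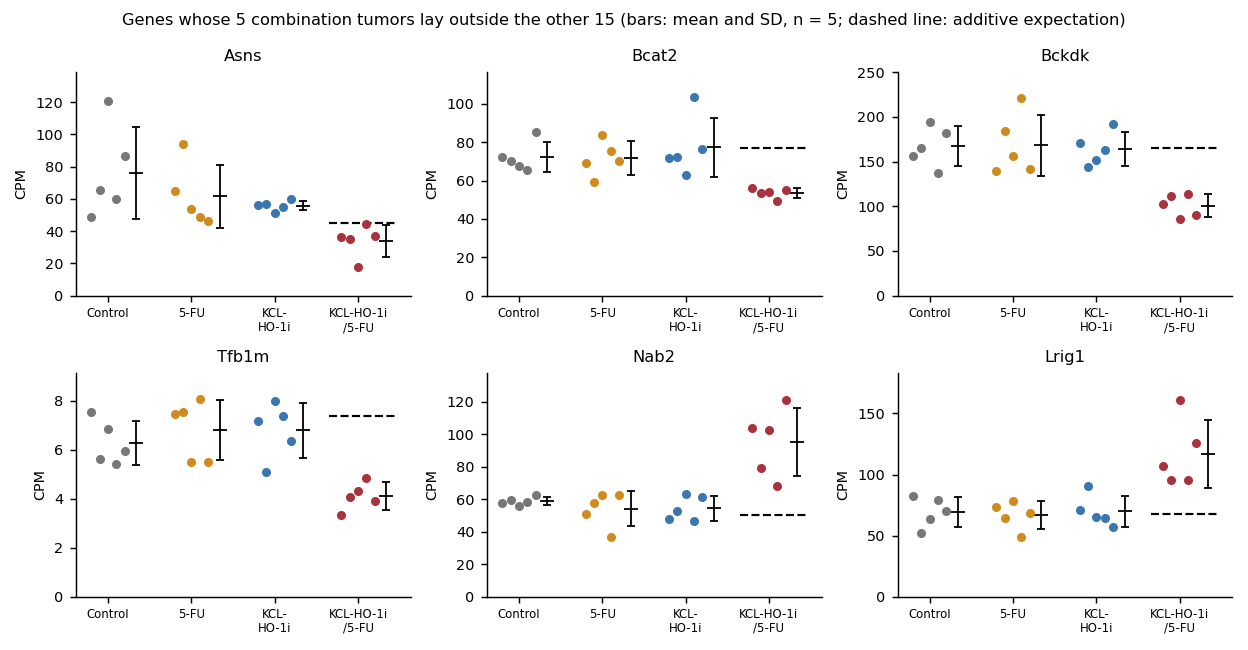
CPM of 6 genes in each of the 20 tumors, replicates 1 to 5 from left to right, with group means and SD (n = 5) and the additive expectation as a dashed line. The combination tumors lie below all others in Asns, Bcat2, Bckdk and Tfb1m and above all others in Nab2 and Lrig1, and for Asns the dashed line at 45.1 CPM is close to the combination tumors.

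Of those 10 genes Smurf2, Grb2 and Dcaf7 lie on distal chromosome 11. Smurf2, a ubiquitin ligase of the transforming growth factor beta pathway (chromosome 11, 106820061 to 106920747 in GRCm38), was at 315, 116, 118, 262 and 288 CPM in the combination, 78.6 to 156 in Control, 77.1 to 113 in 5-FU and 82.5 to 103 in KCL-HO-1i. Its interaction was 1.54 (SE 0.35, adjusted p = 0.420). Combination replicates 1, 4 and 5 were high and replicates 2 and 3 lay within the Control range. Grb2, an adaptor of receptor tyrosine kinases, was high in the same 3 tumors, at 405, 221 and 225 CPM, against 112 and 122 in replicates 2 and 3. Dcaf7, a scaffold protein, was high in replicates 1 and 4, at 282 and 368 CPM, and at 118 in replicate 5. Control means were 123 ± 40.4 CPM for Grb2 and 151 ± 35.0 for Dcaf7 (SD, n = 5). Of 1148 tested genes on chromosome 11, 113 were above the expectation at the unadjusted threshold (9.84%, against 4.04% of all genes with a position), and 96 of them were among the 325 that start at or beyond 100 Mb (29.5%). On the rest of the chromosome 2.07% were above, and on all other chromosomes 3.51%.

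The combination tumors that were high differed between the windows of this region. Between 110 and 120 Mb, 60 of 116 genes were above the expectation with a median of 0.83, and the median deviation of these genes from their mean over the 20 tumors was 0.83 in combination replicate 4 and 0.85 in replicate 5, on the log2 CPM scale. Beyond 120 Mb replicate 5 deviated by 0.94 and the other combination tumors by -0.12 to 0.05, and replicate 1 deviated by 0.28 between 100 and 110 Mb and by 0.26 between 110 and 120 Mb. Combination replicates 2 and 3 deviated by -0.04 and -0.10 in the window from 110 to 120 Mb. In that window Control replicates 4 and 2 deviated by 0.33 and 0.19 and the other Control tumors by -0.33 to -0.23. The KCL-HO-1i tumors deviated by -0.28 to -0.20 and the 5-FU tumors by -0.28 to 0.08. Without combination replicates 4 and 5 together 51 of 325 distal genes were above the expectation (15.7%). The count for the whole chromosome was 74 without Control replicate 4. With the number in the mouse code as a covariate 2 distal genes were above the expectation at the threshold, as were 157 of all 13587 genes with a position. That fit links Control to the other groups through Control replicate 1 alone. The meaning of the mouse code number is not stated. Combination replicates 1 and 5 share it with each other and with KCL-HO-1i replicate 5, which deviated by -0.21 between 110 and 120 Mb, and combination replicates 2 and 4 share another with 5-FU replicate 5, which deviated by -0.02. Tk1, thymidine kinase, which salvages thymidine and lies in this region (chromosome 11, 117815519 to 117826087), was at 34.3, 18.2, 21.4, 117 and 78.5 CPM in the combination. Its interaction of 0.73 turned to -0.40 without replicates 4 and 5.

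**Figure D4:**
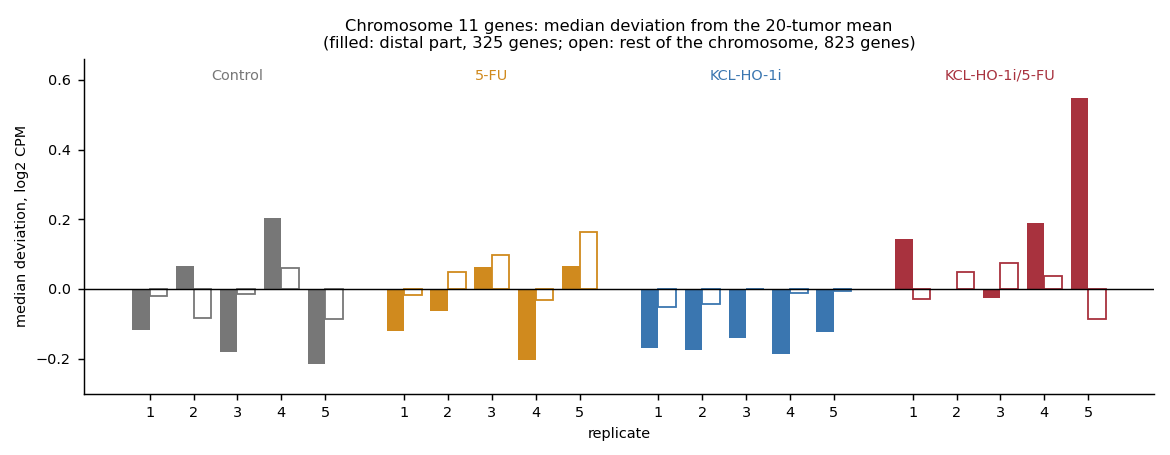
Median deviation of chromosome 11 genes from their mean over the 20 tumors on the log2 CPM scale, by tumor, for the part that starts at 100 Mb (filled bars, 325 genes) and the rest of the chromosome (open bars, 823 genes). Combination replicate 5 stands out in the distal part at 0.55, with replicates 4 and 1 at 0.19 and 0.14 and Control replicate 4 at 0.20.

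The largest negative interactions belonged to skeletal muscle and fat genes. Of 19 tested muscle genes 18 were below the additive expectation at the unadjusted threshold, and this count was 18 with each of the 20 libraries left out in turn. The summed level of the list was 67.4, 12.2, 29.7, 12.6 and 9.89 CPM in Control, 14.9, 120, 105, 13.2 and 332 in 5-FU, 31.7, 214, 2169, 5644 and 150 in KCL-HO-1i, and 84.1, 21.4, 15.3, 16.4 and 15.8 in the combination. The combination overlapped Control, while KCL-HO-1i replicates 3 and 4 were far above every other tumor and 5-FU replicate 5 was the highest outside that group. No fit left out both KCL-HO-1i replicates 3 and 4. The constant count of 18 therefore cannot tell whether the result rests on them. The list median of -9.00 rests on groups with few reads and depends on the small count added in the fit, so it is no measure of fold. On the log2 CPM scale with a prior count of 2 the score was -0.91 ± 1.28 in Control, 0.96 ± 2.25 in 5-FU, 3.86 ± 2.91 in KCL-HO-1i and -0.44 ± 1.23 in the combination (SD, n = 5), an interaction of -6.17. Acta1, skeletal alpha-actin, ranged from 0.313 to 17.7 CPM in the combination, from 0 to 85.6 in 5-FU and from 4.16 to 1498 in KCL-HO-1i. limma-voom gave 0 muscle genes at the unadjusted threshold, with a median of -7.17, and the fit with the mouse code number gave 0 with -1.69.

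The 22 calls of DESeq2 were mostly of this kind. Besides Actn3, Des, Tnni2, Neb, Actn2, Acta1, Mylpf, Ckm and Ryr1 of the sarcomere and its calcium and energy supply they included Csrp3, Myo18b, Nrap, Hspb7, Jsrp1, Pygm and Mybpc2. Cidea, a lipid droplet protein of brown fat, Smurf2, Myb, Sycp1 and Clstn3 were also called, and Smurf2 was the only one above the expectation. In edgeR their adjusted p ran from 0.420 to 0.450.

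Fat genes followed the same arrangement with fewer members at the threshold. All 7 tested brown fat genes were negative and 5 had an unadjusted p under 0.05. Ucp1, the uncoupling protein of brown fat, was at 1681 CPM in KCL-HO-1i replicate 4, 34.6 in replicate 3 and 12.2 in 5-FU replicate 5, and at 1.58 or less in the other tumors. Without KCL-HO-1i replicate 4 the count was 3 and the list median -1.86 in place of -4.88. Of 14 white fat genes, all negative, 4 were at the threshold, with Fabp4, a fatty acid carrier, at 3895 CPM in KCL-HO-1i replicate 4 and from 3.76 to 228 in the combination. That count was 0 without KCL-HO-1i replicate 4, 2 without 5-FU replicate 1, 8 without combination replicate 3 and 9 without Control replicate 4. The tumor with the highest fat and muscle scores, KCL-HO-1i replicate 4, was also the one with the highest oxidative phosphorylation score, 8.52, and the part of fat and muscle transcripts in the result for oxidative phosphorylation was not tested. Without it the oxidative phosphorylation genes had a median of -0.34.

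**Figure D5:**
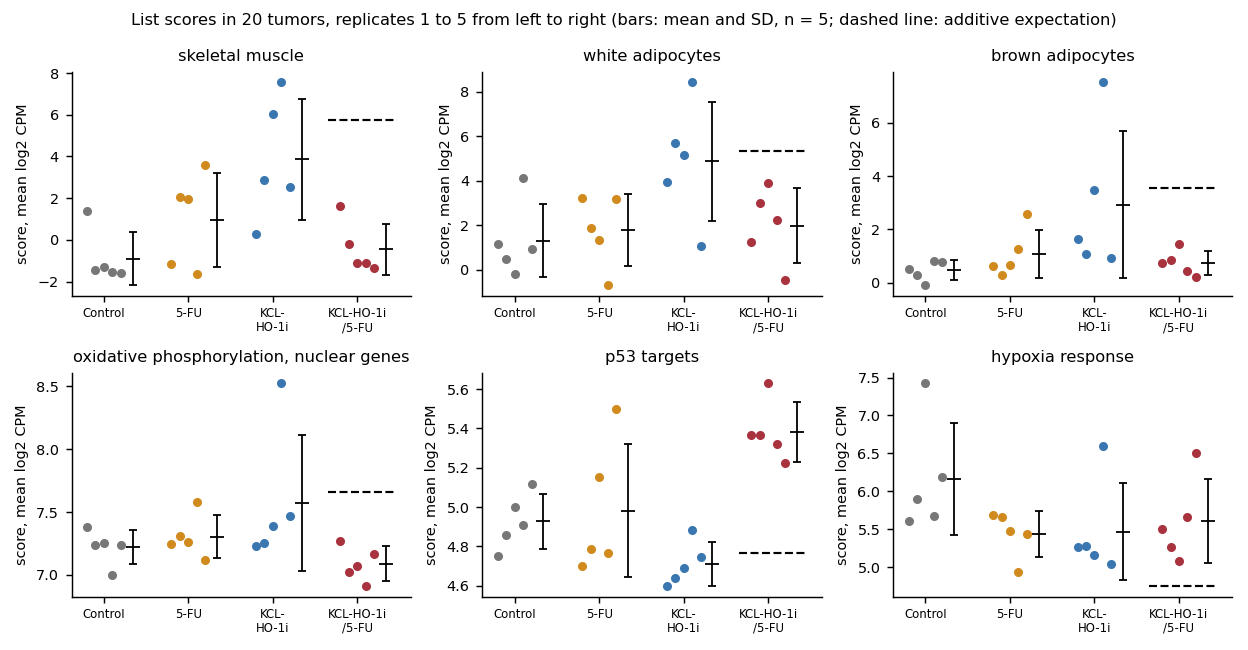
List scores, the mean log2 CPM of the tested genes with a prior count of 2, in each of the 20 tumors, replicates 1 to 5 from left to right, with group means and SD (n = 5) and the additive expectation of the scores as a dashed line. KCL-HO-1i replicate 4 is the highest tumor in the muscle, white fat, brown fat and oxidative phosphorylation panels (8.52 in the last), and the combination tumors exceed the dashed line in the p53 panel, from 5.22 to 5.63.

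Genes tied to the targets of both drugs were then examined. Hmox1, on chromosome 8 (75093618 to 75100593), was at 189, 63.6, 1198, 222 and 107 CPM in the combination, 86.4, 106, 299, 225 and 47.8 in KCL-HO-1i, 33.9, 35.2, 63.9, 12.1 and 48.9 in 5-FU, and 32.9, 51.3, 84.7, 59.9 and 18.4 in Control. Both groups given KCL-HO-1i had higher means than those without it and overlapped them, and combination replicate 3 lay far above the rest. The interaction of 1.57 had an interval that included 0 (SE 0.89, 95% interval -0.26 to 3.40, adjusted p = 0.636), and it was 0.28 (SE 0.73) without combination replicate 3. Hmox2, the constitutive isoform, had an interaction of -0.05 (SE 0.16, 95% interval -0.36 to 0.27). Slc40a1, the iron exporter ferroportin, was at 34.9, 40.7, 250, 45.9 and 24.3 CPM in the combination and 20.2 to 49.2 in KCL-HO-1i, with an interaction of 0.58 (SE 0.62, adjusted p = 0.793) that was -0.54 without combination replicate 3. In the list of heme and iron genes 0 of 14 members reached the unadjusted threshold and the median was -0.14. In the oxidative stress list Slc7a11, the cystine importer, lay above the expectation, with 17.0 CPM in combination replicate 3 and 2.15 to 4.53 in the other 4 (1.68, SE 0.69, adjusted p = 0.508), and Gsr, glutathione reductase, below it (-0.37, SE 0.16, adjusted p = 0.523), with a list median of -0.02.

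Among 23 genes of pyrimidine metabolism and 5-FU handling only Dut, the dUTPase that keeps uracil out of DNA, reached the unadjusted threshold, at 41.0, 30.4, 31.2, 30.4 and 41.8 CPM in the combination against 28.9 to 97.0 in 5-FU (-0.77, SE 0.33, adjusted p = 0.519). The count was 0 if Control replicate 4, KCL-HO-1i replicate 5 or 5-FU replicate 4 was left out, 2 if it was KCL-HO-1i replicate 1 or 3, 4 if 5-FU replicate 5 and 5 if combination replicate 4. Tyms, thymidylate synthase and the main target of 5-FU, had means of 23.6, 20.9, 20.5 and 15.6 CPM in Control, 5-FU, KCL-HO-1i and the combination and an interaction of -0.21 (SE 0.34, adjusted p = 0.875). Umps, which converts 5-FU to its nucleotide, had an interaction of -0.26 (SE 0.23), Upp1, uridine phosphorylase, one of 0.67 (SE 0.58), and Dpyd, which degrades 5-FU, one of -0.32 (SE 0.97) that turned to 0.97 without 5-FU replicate 4. Mitosis genes were negative in 19 of 20 members with a median of -0.65 and 0 at the threshold, and DNA replication genes in 20 of 20 with a median of -0.44 and 2 at the threshold, Mcm7 (-0.93) and Gins1 (-1.17). The mitosis score was 4.81, 3.40, 4.06, 5.66 and 4.88 in the combination, 5.76, 5.79, 5.56, 5.50 and 3.77 in 5-FU, and 5.36 to 5.95 in Control and KCL-HO-1i. All combination tumors but replicate 4 were below every Control and KCL-HO-1i tumor, and 5-FU replicate 5, the tumor with the high Cdkn1a, was low as well. Without that 5-FU tumor 8 mitosis and 10 replication genes were below the expectation, and without combination replicate 4 the counts were 8 and 9. The count of all tested genes below the expectation was also highest without that 5-FU tumor, of the fits with 1 library left out. With the mouse code number as a covariate the medians turned to 0.62 for mitosis and 0.31 for replication, with 0 members at the threshold. That fit links Control to the other groups through Control replicate 1 alone. DNA damage and repair genes were negative in 17 of 18 members, with a median of -0.28 and 0 at the threshold. Without combination replicate 4 their median was -0.60 and 4 were below the expectation, and without 5-FU replicate 5 there were 3. The replication count was 1 without Control replicate 4, 5-FU replicates 2 or 4, or combination replicates 2 or 3.

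Few immune and stromal genes reached the unadjusted threshold. Lyve1, the hyaluronan receptor that marks perivascular macrophages, was at 7.75, 5.07, 15.8, 34.5 and 0.247 CPM in KCL-HO-1i, 0.754, 1.04, 0.617, 1.98 and 0 in the combination, 5.10, 2.11, 1.39, 0 and 4.59 in 5-FU, and 1.79, 0.0727, 0.352, 4.24 and 0.818 in Control. It was higher in 4 of 5 KCL-HO-1i tumors than in every combination tumor, with an interaction of -4.70 (SE 1.78, adjusted p = 0.486) from few reads. The mannose receptor gene Mrc1, another marker of these macrophages, was at 7.61, 19.9, 72.4, 14.9 and 2.11 CPM in the combination (-1.19, SE 1.21, adjusted p = 0.781). Of the 12 macrophage genes of this kind 2 reached the threshold, Lyve1 and Timd4, both below. The count was 5 without combination replicate 3, and 1 without Control replicates 2, 3 or 5, 5-FU replicate 1, KCL-HO-1i replicate 4, or combination replicates 1, 4 or 5. T cell and cytotoxic genes were negative in 10 of 11 members with a median of -0.96 and 0 at the threshold, and Gzmb, granzyme B, had means of 2.36, 7.11, 3.03 and 3.74 CPM (-1.29, SE 0.77, adjusted p = 0.650). Cd8a was at 1.23 ± 0.390 CPM in the combination and 1.83 ± 1.17 in 5-FU (SD, n = 5), with an interaction of 0.08 (SE 0.86, 95% interval -1.67 to 1.84), so a change of either sign was not detectable at this level.

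Ccl21a, a chemokine of lymphatic vessels, was listed at 0 in all 5 Control tumors and at 0 to 10.3 CPM in 5-FU, 0 to 1.32 in KCL-HO-1i and 0.0742 to 4.14 in the combination. Since Control had no reads its interaction is not given. Cxcl12 and Cxcl14, chemokines of stromal cells, had interactions of -0.67 (SE 0.94) and -1.32 (SE 0.81, adjusted p = 0.659). Ccl6, a macrophage chemokine, was below the expectation at the threshold (-2.49, SE 1.08, adjusted p = 0.520). It and Ccl21a, which was compared with a group at 0, made up the count of 2 in this list, and the median of the 19 chemokine and cytokine genes was -0.67. Fibroblast genes had a median of -1.45, with Dpt, dermatopontin, and Thy1 at the threshold. The fibroblast score was 2.74 ± 1.52, 3.97 ± 0.94, 5.06 ± 1.25 and 4.20 ± 1.61 in Control, 5-FU, KCL-HO-1i and the combination (SD, n = 5), and the means of Control and KCL-HO-1i lay further apart than the SD of any group, while the combination lay within 1 SD of both treatments alone. The fibroblast count was 0 without Control replicates 2, 3 or 5, 5-FU replicates 1 or 5, KCL-HO-1i replicates 3 or 4, or combination replicates 1, 4 or 5, 4 without KCL-HO-1i replicate 5 and 5 without combination replicate 3. The chemokine count of 2 was 1 without Control replicate 5, 5-FU replicate 1, KCL-HO-1i replicates 3 or 4, or combination replicate 1, 3 without Control replicates 1 or 4, 5-FU replicate 4 or KCL-HO-1i replicate 5, and 4 without combination replicate 3.

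Milk protein genes included Csn1s2a and Glycam1 below the expectation (-5.94, SE 2.30, adjusted p = 0.486, and -6.04, SE 2.58, adjusted p = 0.516), while the abundant Csn3 was at 0.24 (SE 0.74). Of the 12 members 3 were below at the threshold, or 1 without 5-FU replicate 3. Cholesterol synthesis genes Idi1 (-0.97) and Fdft1 (-0.60) were below the expectation among 16 members with a median of -0.15, and Dkc1 (-0.62, adjusted p = 0.486) among 18 ribosome biogenesis genes. In the endoplasmic reticulum stress list 13 of 16 members were positive with a median of 0.28, and Sesn2, shared with the p53 list, was the only one at the threshold. Single members were below the expectation in the lists of pericytes and smooth muscle (Des, the intermediate filament of muscle cells, skeletal muscle included) and skin (Krt71, a hair follicle keratin), while lists of luminal epithelium, endothelium, macrophages in general, neutrophils, interferon-stimulated genes, antigen presentation, immediate early genes, B cells and hemoglobin held 0 members at the threshold in either direction.

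Whether the effect of KCL-HO-1i on top of 5-FU differed from that on top of gemcitabine was asked of the same fit, a contrast in which the Control and KCL-HO-1i tumors cancel. In edgeR 0 of 13663 genes (0%) passed the adjusted threshold, with a smallest adjusted p of 0.517, and 562 were higher (4.11%) and 364 lower (2.66%) on the 5-FU background at an unadjusted p under 0.05. DESeq2 gave 4 genes and limma-voom 0. Camsap1, which caps microtubule minus ends, had the smallest p (0.94, SE 0.19, adjusted p = 0.517), followed among higher genes by Smurf2 (1.58, SE 0.35, adjusted p = 0.517). Of the p53 targets 4 of 18 were higher on the 5-FU background, with 0 lower and a median of 0.36, and of the 12 heat shock and metallothionein genes 3 were higher and 0 lower. All 19 muscle genes were lower, with a median of -7.67, among them Actn2 (-8.90, SE 2.39, adjusted p = 0.517), on few reads. The nuclear oxidative phosphorylation genes had a median of -0.23 and 0 members at the threshold. The 5-FU libraries of this contrast are those of the interaction, so these values are not separate evidence.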

How the data were processed

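RNA was extracted from whole tumors and sequenced from stranded libraries. Per the labels, reads were handled with FastQC 0.11.9, STAR 2.7.9a, Salmon 1.9.0 and DESeq2, and the build was mm10. The table deposited by the authors holds expected counts per gene (estimated counts of Salmon, 38.0% of them not whole), which were rounded to whole numbers here. Genes were kept with filterByExpr at a minimum count of 10 (13663 of 21841). All 30 libraries were fitted with 6 group means by the quasi-likelihood test of edgeR 4.0.16 in R 4.3.3 with TMM normalization, p-values were adjusted by the Benjamini-Hochberg method at 0.05, and SE and 95% intervals came from the F statistic. List scores used log2 CPM with a prior count of 2. The median SE was 0.296, and SE was under 0.5 in 70.1% of genes. A level of 3 reads was at most 0.302 CPM. Tumors were grouped by their labels, and p-values measure only the spread between these tumors. Alternatives were DESeq2 1.42.0, limma-voom 3.58.1 with quality weights, other normalization and filters, a replicate block, the mouse code number as a covariate, the 20 libraries alone and each library left out. Tumors of different groups with the same replicate number did not deviate together (mean correlation 0.0151 over 30 pairs, from -0.219 to 0.405), so the replicate numbers were not taken as pairs. No 2 libraries of a group agreed within counting noise (lowest chi-square per degree of freedom 20.7). Named genes were the 10 with the smallest p in each direction among those with a mean of at least 5 CPM, 16 preset genes of heme, immune cells and 5-FU handling, and in each list the 2 members with the smallest p and the one with the highest mean. Other genes in the text were named after their values were seen. Members and lists were chosen with earlier results of these data known, and the mitochondrial and protocadherin families, the genes whose tumors did not overlap and the promoter patterns after their values were seen. Promoters are from RefSeq, GRCm38.p6. The fit was also run on simulated counts with set interactions. These counts were independent, with no outlying tumors or shared mouse codes built in, so that run did not cover such features.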

Additional observations from a re-analysis of the deposited data

Results flagged for a closer look

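In groups of 5 tumors, a tumor far from the other 4 was looked for in 36 named genes, which gave 11 cases among 144 groups. About 1 in 20 groups would be flagged if values were independent and normally spread. Many of these genes were picked by their interaction in these same tumors, and some groups sat at or near 0 CPM. The count of 11 is therefore not read against that rate. In the combination, replicate 3 held 250 CPM of Slc40a1 against 24.3 to 45.9 in the other 4, replicate 4 held 57.7 CPM of Hmox2 against 72.5 to 79.4, and replicate 1 held 1.43 CPM of the muscle gene Xirp2 against 0 to 0.148. In 5-FU, replicate 4 held 77.1 CPM of Smurf2 against 102 to 113 and 71.7 CPM of Dpyd against 6.98 to 11.04, and replicate 5 held 12.2 CPM of Ucp1 against 0 to 0.163. In KCL-HO-1i, replicate 1 held 125 CPM of Dcaf7 against 107 to 112, and replicate 4 held 56.6 CPM of Mtif2 against 40.7 to 44.6. Control replicate 1 held the muscle genes Myl1 at 2.72 CPM against 0 in the other 4, Xirp2 at 0.846 CPM against 0, and Myh1 at 1.22 CPM against 0 to 0.0879.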

How the results depend on the processing

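No gene passed the adjusted threshold for the interaction in edgeR under any alternative normalization, filter or covariate tried, and DESeq2 gave 22, and 4 for the contrast of the 5-FU and gemcitabine backgrounds. At the unadjusted threshold limma-voom gave 1006 genes above and 932 below the expectation, and the mouse code number as a covariate 157 above and 132 below. With 1 library left out the count above ran from 452 to 634 and that below from 388 (without KCL-HO-1i replicate 4) to 861 (without 5-FU replicate 5). With the replicate block there were 0 genes at the adjusted threshold, 481 above and 503 below, and 12 of the 24 oxidative phosphorylation genes were below in place of 21. The sign of some small interactions turned. Hmox2 was at 0.087 in limma-voom, 0.19 with the mouse code, 0.022 without combination replicates 4 and 5, and -0.15 to 0.045 with 1 library left out. Dpyd was at 0.068, 0.23 and 0.15 in the same fits, and at -1.12 to 0.97 with 1 library left out. With the mouse code Mrc1 was at 0.021, Cd8a at -2.84, Cxcl12 at 0.93, Cxcl14 at 0.83, Slc40a1 at -0.18 and Tyms at 0.11. The mouse code fit links Control to the other groups through Control replicate 1 alone. With 1 library left out Cd8a ran from -0.26 to 0.46, Cxcl12 from -1.56 to 0.035, Slc40a1 from -0.54 to 0.81 and Tyms from -0.34 to 0.034, and Tk1 was at -0.40 without combination replicates 4 and 5. Of the other values of named genes, 302 had the same sign and side of the adjusted threshold under alternatives other than leaving 1 library out and 706 with 1 library left out, while 5 passed it in DESeq2 only. The causes were not tested. With 5 tumors a group the median SE of a single gene was 0.296. List medians lay on both sides of that size, with 0.05 for heat shock and metallothionein genes and -0.65 for oxidative phosphorylation. The SE of single genes does not measure the error of a list median.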
